A study of Mus musculus with 40 samples.

Results

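The 5 mature miRNAs mmu-miR-320-3p, mmu-miR-484, mmu-miR-423-5p, mmu-miR-423-3p and mmu-miR-676-3p were followed through 4 mouse tissues, in RNA pulled down for its thiol label (IP) and in total small RNA (input). They were taken by name from a table of 1894 miRNA entries, 1613 of which had a count in any library, and 5 of 5 were found. The names were chosen by the IP over input change measured in these libraries, so that change is described for them without a test. The comparisons of inputs between tissues and the ratios between 2 miRNAs of an input library did not take part in the choice and were tested.

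The libraries came from brown fat, liver, muscle and hypothalamus of 10 male mice, 8 to 12 weeks old and on standard chow, with 5 IP and 5 input libraries per tissue, 40 in all. The UCP1;UPRT mice came from a cross of the Cre line Tg(Ucp1-cre)1Evdr/J, in which the recombinase is driven by the promoter of the brown fat uncoupling protein gene, with the line Tg(CAG-GFP,-Uprt)985Cdoe/J, whose transgene for uracil phosphoribosyltransferase is switched on by Cre. This enzyme turns the base 4-thiouracil into a nucleotide that new RNA can take up, after which the labelled RNA was biotinylated and caught on streptavidin. Every mouse was given 4-thiouracil at 50 mg/kg into the peritoneum, 4 times, 48 h apart. The question of the design is which miRNAs carry a label made in brown fat and whether they are found in other tissues. No group without 4-thiouracil or without Cre was used here, the genotype of the single mice is not in the labels, and the IP libraries make up sequencing pool 2 while the input libraries make up pool 1, which means that pool and pull-down cannot be told apart.

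Most miRNAs are cut from a long transcript by the nuclease Drosha and then from the hairpin by Dicer, which leaves a duplex of a 5p and a 3p strand, one of which is usually kept by an Argonaute protein while the other is lost. miR-320 and miR-484 are known to need Dicer but not Drosha: their hairpins arise as short transcripts of their own, and for miR-320 the capped 5p strand is not loaded, so the 3p strand is the product. miR-423, from which both strands are commonly recovered, and miR-676 are cut from the introns of host genes. miR-423-3p and miR-484 are also widely used as references for miRNA measurements by PCR.

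The mature sequences, from RefSeq on GRCm38.p6 (mm10), are shown because the strands of miR-423 moved apart and because the letters differ between the miRNAs that were high in the IP and those that were not. The sequence table matched 4 of the 5 miRNAs by name; miR-320-3p is named only. Capitals mark the seed, bases 2 to 8, which pairs with targets.
mmu-miR-484: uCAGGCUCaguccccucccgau
mmu-miR-423-5p: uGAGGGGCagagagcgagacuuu
mmu-miR-423-3p: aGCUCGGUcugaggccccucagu
mmu-miR-676-3p: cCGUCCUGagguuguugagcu
The 4 seeds are all different. Among the 1679 mature miRNAs of the table, the seed of miR-423-5p was shared by mmu-miR-6921-5p, and the other 3 seeds had no second holder. The hairpin of miR-423 shows where its strands lie, with both mature miRNAs in capitals.
Mir423: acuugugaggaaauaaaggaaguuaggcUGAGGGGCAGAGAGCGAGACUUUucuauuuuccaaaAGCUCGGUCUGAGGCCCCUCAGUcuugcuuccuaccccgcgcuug
In the GENCODE annotation of mm10, this hairpin lies at chr11:77078064-77078172 on the minus strand, in an intron of Nsrp1, a splicing regulator gene read in the same direction. miR-423-5p is at chr11:77078122-77078144 and miR-423-3p at chr11:77078086-77078108. The hairpin of miR-676, at chrX:100381097-100381185 on the plus strand, lies in an intron of Eda, the ectodysplasin gene, also on the same strand, with miR-676-3p at chrX:100381151-100381171. The hairpins of the Drosha-independent pair lie outside introns. Mir484, at chr16:14159626-14159692 on the plus strand, overlaps an exon of Marf1 on the opposite strand, with mature miR-484 at chr16:14159630-14159651. Mir320, at chr14:70443510-70443591 on the plus strand, lies outside genes, 63 bases from Polr3d, an RNA polymerase III subunit gene on the minus strand. How reads on overlapping strands were counted is not given in the sources used here.

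Library totals ran from 11928 to 921297 counts in the IPs and from 153036 to 5562487 in the inputs, and levels are in CPM, the counts of an entry per 1000000 counts of its library. Summed tissue markers were highest in the tissue they mark. The liver pair miR-122-5p and miR-192-5p summed to 730633 to 821953 CPM in liver IPs and 447685 to 515736 in liver inputs. The brain set miR-124-3p, miR-9-5p and miR-7a-5p summed to 62068 to 234571 CPM in hypothalamus IPs and 202949 to 340117 in hypothalamus inputs. The muscle set miR-1a-3p, miR-133a-3p and miR-206-3p summed to 485815 to 616843 CPM in muscle IPs and 629863 to 653277 in muscle inputs, and it also stood at 50612 to 256642 CPM in brown fat IPs and 69008 to 293083 in brown fat inputs. The part of the muscle set in the brown fat results was not tested. The brown fat set miR-193b-3p, miR-365-3p and miR-378a-3p summed to 78892.5 to 173495 CPM in brown fat IPs and 94472 to 132331 in brown fat inputs. Its means there, 127417 and 114076 CPM, were below those of the muscle set, 179057 and 158664 CPM. Nearly all of it was miR-378a-3p, with means of 127120 and 112576 CPM, which also averaged 16122 CPM in muscle inputs. Single markers of a set moved apart in the pull-down. In liver miR-122-5p averaged 763389 CPM in IPs and 398749 in inputs, but miR-192-5p 6260 and 82256. In muscle miR-206-3p averaged 18545 CPM in IPs and 4099 in inputs, but miR-133a-3p 5641 and 25115. In hypothalamus miR-124-3p averaged 566 CPM in IPs and 5638 in inputs, and miR-7a-5p 107063 and 157938. The sums therefore follow the most abundant marker. The 2 shallowest libraries are named beside the results they touch. Liver IP 4 had 11928 counts in all and 3.25 to 101 expected counts of the members. Hypothalamus input 4 had 153036 counts, 17 to 44.5 of the members, and 188869 CPM of the muscle set, against 1530.45 to 2557 CPM in the other hypothalamus inputs. It also had 22332 CPM of the liver pair and 11333 CPM of the brown fat set miR-193b-3p, miR-365-3p and miR-378a-3p, where the others had at most 1066 and 2099.7 CPM. The endothelial marker miR-126a-3p ran from 1474 to 2890 CPM in brown fat IPs and from 22681 to 54395 in brown fat inputs, from 44.8 to 494 CPM in the IPs of the other tissues and from 2196 to 6119 in their inputs. The red blood cell and leukocyte pairs summed to at most 8.04 CPM in any IP and to 3.39 to 740 CPM in the inputs. The part of these cells in the differences between tissues and library types was not tested. Together the 5 miRNAs took 0.510% ± 0.163 of the counts in brown fat IPs and 0.168% ± 0.0364 in brown fat inputs, 0.376% ± 0.353 in liver IPs (0.219% ± 0.0476 without liver IP 4, n = 4) and 0.0815% ± 0.0136 in liver inputs, 0.123% ± 0.0621 in muscle IPs and 0.0233% ± 0.00359 in muscle inputs, and 0.687% ± 0.336 in hypothalamus IPs and 0.10% ± 0.0256 in hypothalamus inputs (SD, n = 5 each).

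The Drosha-independent pair parted in the pull-down: miR-320-3p was higher in every IP than in any input of its tissue, and miR-484 was not. In brown fat, miR-320-3p had 1373, 2323, 1105, 1360.4 and 1747 CPM in the IPs, against 202, 248, 213, 252.5 and 197 CPM in the inputs. In liver it had 479, 455, 414, 272 and 321 CPM in the IPs, against 123, 67.0, 81.2, 98.7 and 45.3 CPM in the inputs. The groups did not overlap in either tissue, and liver IP 4, with 3.25 counts, was the lowest of the liver IPs. In muscle the IPs had 242, 241, 381, 369 and 577 CPM, against 22.6, 25.3, 20.1, 23.4 and 29.2 CPM in the inputs. In hypothalamus the IPs had 1304, 1367, 1583, 2699 and 1396 CPM, against 182, 123, 159.6, 113 and 140.1 CPM in the inputs. All IPs were again above all inputs, and the levels overlapped between brown fat IPs, at 1582 ± 474 CPM, and hypothalamus IPs, at 1670 ± 585 CPM (SD, n = 5 each). The opposite strand, miR-320-5p, had at most 0.67 counts in any IP and 8.48 in any input.

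miR-484 gave IP and input levels that overlapped in all 4 tissues. Brown fat IPs had 391, 865, 512, 327 and 538 CPM, against 360.2, 821, 510.0, 749.9 and 809 CPM in brown fat inputs. Liver IPs had 284, 58.7, 153, 377 and 91.5 CPM, against 261, 223, 168, 256 and 129 CPM in liver inputs. The spread between liver IPs was the wider one, and the highest, liver IP 4, rested on 4.5 counts. Muscle IPs had 35.3, 9.66, 36, 63 and 145 CPM, against 70.8, 88.1, 56.6, 73.9 and 109 CPM in muscle inputs. Hypothalamus IPs had 237, 79.6, 264, 317 and 517 CPM, against 403, 245, 409, 291 and 192 CPM in hypothalamus inputs. In both of these tissues the IPs ran below as well as above the whole range of the inputs.

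**Figure D1:**
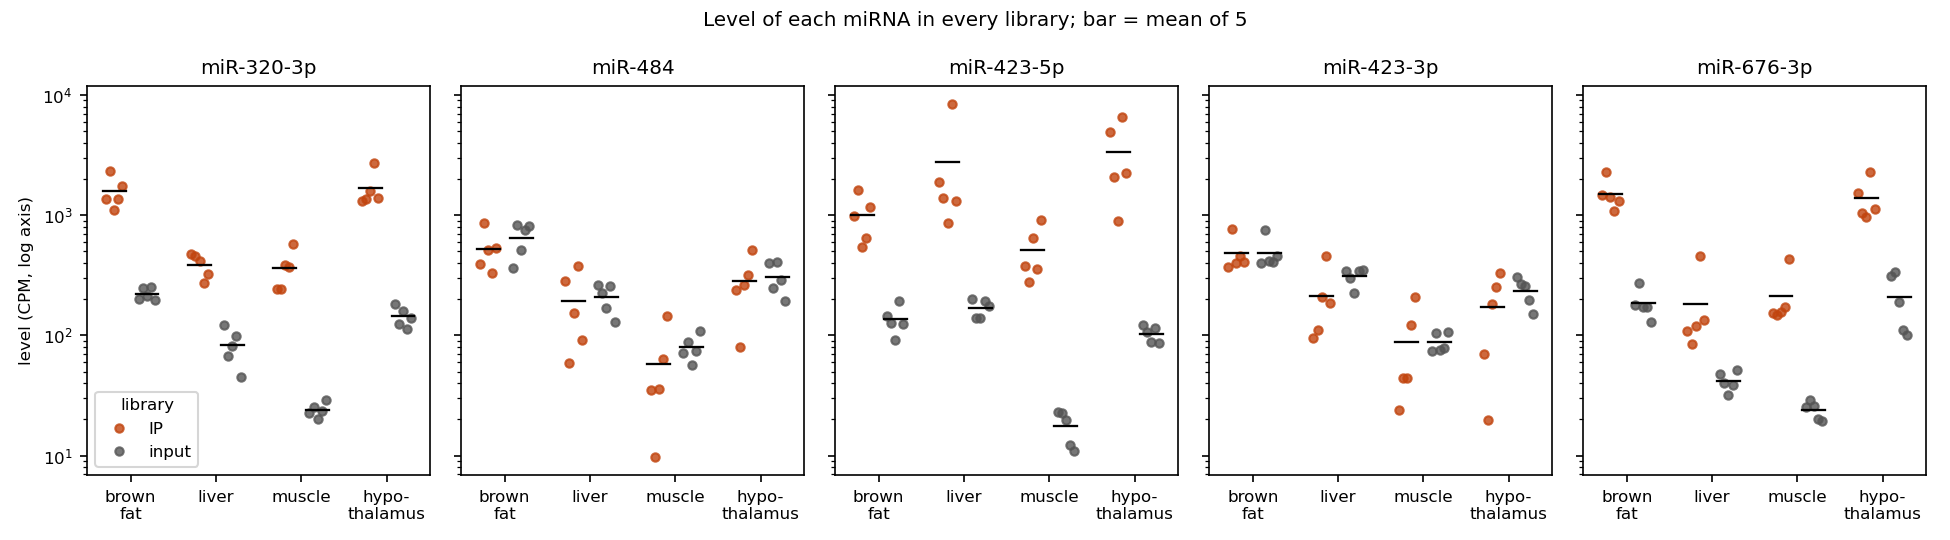
Level of each miRNA in CPM (log axis) in every library of 4 tissues, IP libraries left of input libraries, with a bar at the mean of 5. The IP points of miR-320-3p, miR-423-5p and miR-676-3p lie above all input points of their tissue, and those of miR-484 and miR-423-3p overlap them.

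The strands of miR-423 parted in the same way although they come from one hairpin. miR-423-5p had 994, 1625, 542, 645 and 1173 CPM in brown fat IPs, against 144, 127, 92.2, 195 and 123 CPM in brown fat inputs. In liver it had 1905, 1388, 863, 8467 and 1321 CPM in the IPs, against 202, 140.0, 139.9, 192 and 175 CPM in the inputs. The value of 8467 CPM is that of the shallow liver IP 4, from 101 counts; without that library the liver IPs averaged 1369 ± 426 CPM (SD, n = 4). In muscle the IPs had 374, 277, 643, 354 and 915 CPM, against 22.9, 22.7, 19.9, 12.3 and 10.9 CPM in the inputs. In hypothalamus the IPs had 4952, 2089, 902, 6607 and 2230.3 CPM, against 121, 107, 88.4, 114 and 86.2 CPM in the inputs. In each tissue the lowest IP was above the highest input, also in liver without liver IP 4.

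miR-423-3p overlapped between IP and input in every tissue. Brown fat IPs had 373, 765, 404, 458 and 409 CPM, against 403, 748, 413, 408 and 456 CPM in brown fat inputs, and replicate 2, from the same mouse in both, was the highest of each group. Liver IPs had 95.3, 110.3, 207, 461 and 187 CPM, against 345, 298, 227, 345 and 349 CPM in liver inputs, so that 4 of the 5 liver IPs were below every liver input and the exception was liver IP 4, with 5.5 counts. Muscle IPs had 23.9, 44.1, 43.9, 122 and 207 CPM, against 74.8, 105, 75.8, 78.1 and 106 CPM in muscle inputs. Hypothalamus IPs had 70.2, 19.9, 183, 251 and 333 CPM, against 306, 267, 256, 196 and 149 CPM in hypothalamus inputs. The IP values of hypothalamus rest on 2 to 69.6 counts a library, which makes them the least precise of this strand.

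miR-676-3p followed miR-320-3p and miR-423-5p. Brown fat IPs had 1467, 2291, 1417, 1083 and 1299.9 CPM, against 180.1, 275, 173, 173 and 129.6 CPM in brown fat inputs. Liver IPs had 109, 84.0, 119, 461 and 135 CPM, against 47.4, 40.3, 32.1, 38.5 and 51.4 CPM in liver inputs. In liver the gap was narrower, and without liver IP 4, which had 5.5 counts, the IPs averaged 112 ± 21.3 CPM (SD, n = 4) and still did not overlap the inputs. Muscle IPs had 152, 147, 156, 171 and 432 CPM, against 25.2, 28.9, 26.0, 20.05 and 19.4 CPM in muscle inputs. Hypothalamus IPs had 1529, 1033, 965, 2299 and 1135 CPM, against 312, 338, 191, 111 and 100.3 CPM in hypothalamus inputs. No muscle or hypothalamus IP came down to an input of its tissue.

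Thus 3 of the 5 miRNAs, miR-320-3p, miR-423-5p and miR-676-3p, had every IP above every input in each tissue, and 0 of 5 had every IP below every input. Over all miRNAs tested, every IP was above every input for 13.1% in brown fat, 11% in liver, 17.9% in muscle and 16.1% in hypothalamus, and every IP was below every input for 51.8%, 60%, 55.6% and 45.1%. Since the contrast took part in the choice of the names, nothing is read from the difference. Within single mice, where the labels tie an IP to the input of the same tissue and mouse, these 3 were higher in the IP in 19 of 19 pairs. That follows from the lack of overlap and adds nothing to it. miR-423-3p was higher in the IP in 2 of 4 mice in brown fat, 1 of 5 in liver, 2 of 5 in muscle and 2 of 5 in hypothalamus. miR-484 was higher in 3 of 4 mice in brown fat, 2 of 5 in liver, 1 of 5 in muscle and 2 of 5 in hypothalamus.

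On the scale of the edgeR fit, which sets libraries level by the trimmed mean of M values (TMM), the log2 change of IP over input of miR-320-3p was 3.87 ± 0.25 in brown fat, 3.88 ± 0.47 in liver, 4.66 ± 0.33 in muscle and 4.20 ± 0.31 in hypothalamus (SE). These placed it 13th of 305, 12th of 200, 15th of 268 and 15th of 273 miRNAs tested. For miR-423-5p the log2 change was 3.88 ± 0.31 in brown fat, 4.83 ± 0.41 in liver, 5.55 ± 0.40 in muscle and 5.62 ± 0.56 in hypothalamus (SE). It ranked 12th in brown fat, 6th in liver and muscle, and 2nd in hypothalamus. For miR-676-3p the log2 change was 4.07 ± 0.29 in brown fat, 3.19 ± 0.32 in liver, 3.80 ± 0.32 in muscle and 3.51 ± 0.36 in hypothalamus (SE), with ranks 10, 21, 28 and 27. miR-484 stood lower in the order, above 63.4% to 72.5% of the miRNAs tested, with log2 changes of 0.79 ± 0.24 in brown fat, 1.05 ± 0.37 in liver, -0.06 ± 0.33 in muscle and 0.67 ± 0.46 in hypothalamus (SE) and ranks 107, 55, 98 and 86. miR-423-3p was close to it, with 1.04 ± 0.24 in brown fat, 0.72 ± 0.36 in liver, 0.37 ± 0.28 in muscle and 0.30 ± 0.54 in hypothalamus (SE) and ranks 92, 63, 85 and 100. Without liver IP 4 the liver values of the 5 miRNAs lay between 0.79 and 4.72.

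These changes need the change of the other miRNAs beside them. The median log2 change of all miRNAs tested was -0.34 in brown fat, -0.78 in liver, -1.41 in muscle and -1.04 in hypothalamus on the TMM scale, and -1.44, -2.40, -2.29 and -1.84 with total count as the only scaling. All 5 miRNAs were above the median in all 4 tissues under both scalings. Since a change of scaling moves the miRNAs and their median largely together, the second scaling is no separate check of this. Relative to zero, miR-423-3p changed sign with the scaling in all 4 tissues and miR-484 in all but muscle, where it was negative under both: with total count miR-484 stood at -0.31 in brown fat, -0.41 in liver, -0.70 in muscle and -0.11 in hypothalamus, and miR-423-3p at -0.02, -0.80, -0.15 and -0.45. The total count values of miR-320-3p, miR-423-5p and miR-676-3p stayed positive in every tissue, between 1.66 and 5.01.

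**Figure D2:**
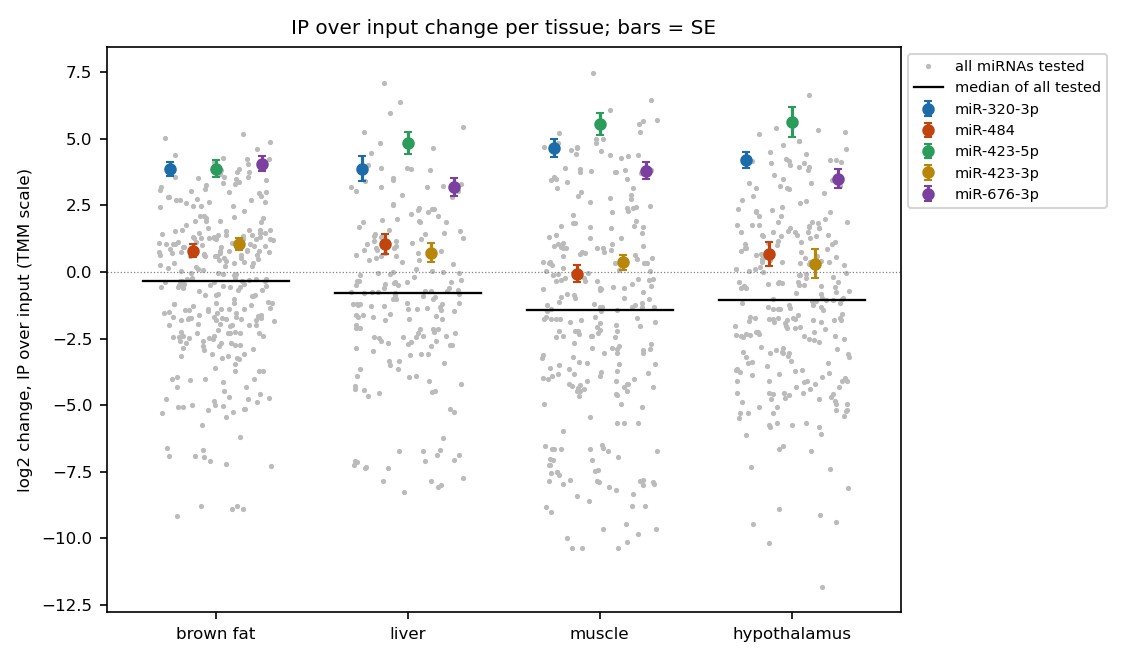
Log2 change of IP over input on the TMM scale per tissue, with SE bars for the 5 miRNAs, a grey point for each miRNA tested and a black line at their median. miR-320-3p, miR-423-5p and miR-676-3p lie between 3.19 and 5.62, and miR-484 and miR-423-3p between -0.06 and 1.05, above medians of -1.41 to -0.34.

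A ratio of 2 miRNAs inside a library does not depend on how libraries are scaled. The ratio of miR-423-5p to miR-423-3p, both 23 bases long, was turned over between the library types: the 5p strand had more counts than the 3p strand in 20 of 20 IPs and in 0 of 20 inputs. In brown fat the log2 ratio was 0.99 ± 0.51 in the IPs and -1.83 ± 0.58 in the inputs (SD, n = 5 each), a difference of 2.82, or 7.05-fold. In liver it was 3.36 ± 0.92 in the IPs and -0.88 ± 0.16 in the inputs, a difference of 4.24, or 18.9-fold, and of 4.06 without liver IP 4. In muscle it was 2.81 ± 1.06 in the IPs and -2.35 ± 0.63 in the inputs, a difference of 5.16, or 35.8-fold. In hypothalamus it was 4.44 ± 1.88 in the IPs and -1.15 ± 0.35 in the inputs, a difference of 5.58, or 48.0-fold. Brown fat IPs had the lowest ratios, 0.42 to 1.52, and hypothalamus IPs the widest spread, 2.29 to 6.39. Strands of other hairpins also parted between IP and input, some of them further in brown fat, and their share was not counted. The IP over input change also took part in the choice of the names. The turn of the ratio is therefore described and not read as a trait of miR-423. From counts summed over the libraries of a group, miR-423-5p made up 69.5% of both strands in brown fat IPs and 23.2% in brown fat inputs, 88.0% in liver IPs and 35.1% in liver inputs, 88.1% in muscle IPs and 16.9% in muscle inputs, and 94.5% in hypothalamus IPs and 32% in hypothalamus inputs.

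The strands of miR-676 also parted, with the 3p strand being the one that was high in the IP. miR-676-5p had 41.3, 121, 29.7, 18.99 and 52.9 CPM in brown fat IPs, against 65.5, 93.1, 89.3, 81.5 and 88.3 CPM in brown fat inputs. The log2 ratio of miR-676-3p to miR-676-5p was 5.02 ± 0.61 in brown fat IPs and 1.12 ± 0.41 in brown fat inputs (SD, n = 5 each), a difference of 3.90, or 15-fold. In the other tissues the 5p strand had few counts in the IP, with 1, 5 and 14 counts summed over the 5 IPs of liver, muscle and hypothalamus and 61.2, 243 and 873 counts over their inputs. No fold is given for these. The ratio of the Drosha-independent pair, miR-484 to miR-320-3p, was lower in the IP in all 4 tissues, without overlap of the groups. Its log2 value was -1.62 ± 0.36 in brown fat IPs and 1.48 ± 0.46 in brown fat inputs, -1.29 ± 1.23 in liver IPs and 1.34 ± 0.29 in liver inputs, -3.03 ± 0.99 in muscle IPs and 1.70 ± 0.15 in muscle inputs, and -2.71 ± 0.94 in hypothalamus IPs and 1.06 ± 0.37 in hypothalamus inputs (SD, n = 5 each). Between miRNAs of one library this is a difference of -3.10 in brown fat, -2.63 in liver, -4.72 in muscle and -3.76 in hypothalamus. No share over other pairs of miRNAs is given for these ratios, so nothing is read from the lack of overlap.

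**Figure D3:**
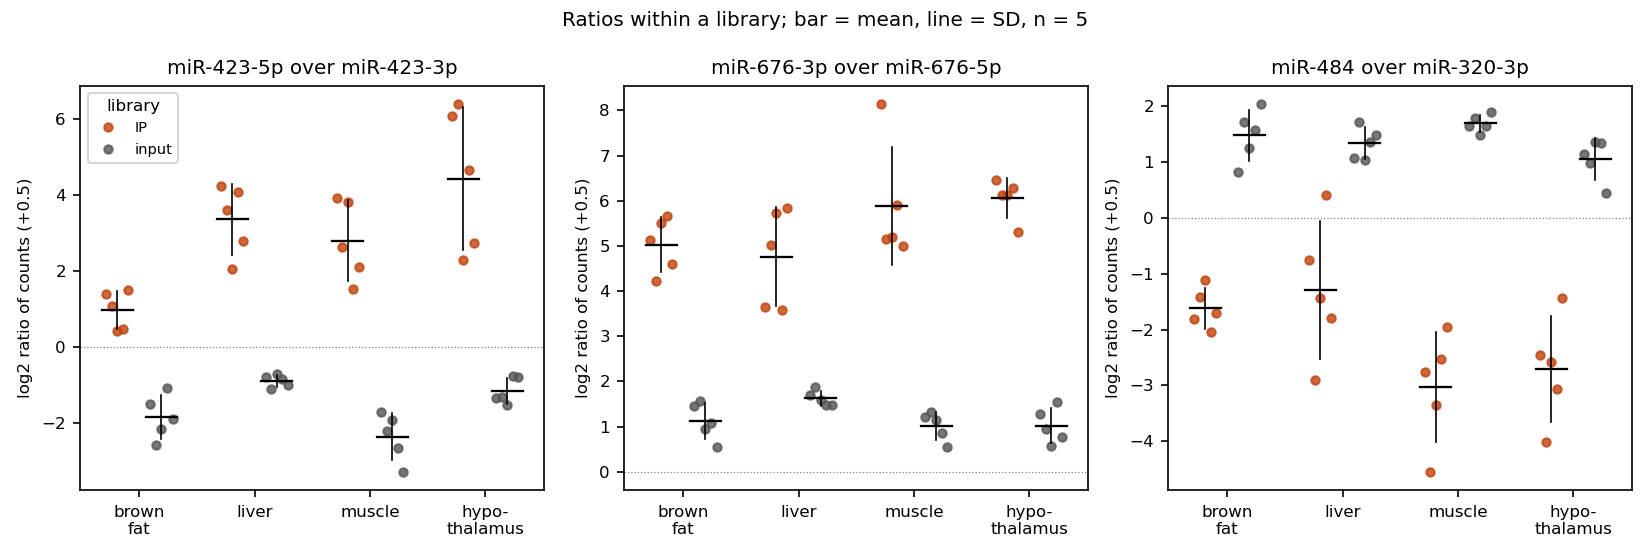
Log2 ratios of expected counts, each with 0.5 added, within a library: miR-423-5p over miR-423-3p, miR-676-3p over miR-676-5p, and miR-484 over miR-320-3p, IP left of input, with mean and SD of 5 libraries. The IP and input points do not overlap in any panel or tissue; for miR-676 the added 0.5 sets the height of the IP points with 0 counts of the 5p strand.

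The letters of the mature miRNAs were compared with the change in the IP, since the label is on uridine. miR-484 has 5 U in 22 bases, miR-423-5p 4 in 23, miR-423-3p 5 in 23 and miR-676-3p 7 in 21. Of these 4, the 2 high in the IP were miR-423-5p, with the lowest share of U (17.4%), and miR-676-3p, with the highest (33.3%). miR-484 and miR-423-3p lay between them, at 22.7% and 21.7%. In these 4, miR-484 has 10 C (45.5%) and miR-423-3p 8 C (34.8%), against 3 C (13%) in miR-423-5p and 5 C (23.8%) in miR-676-3p, while miR-423-5p holds 10 G (43.5%). All 4 are rich in G and C, with 63.6% in miR-484, 56.5% in miR-423-5p, 65.2% in miR-423-3p and 57.1% in miR-676-3p, where the median of the miRNAs tested with a sequence was 45.5% in liver and 47.6% in each of the other tissues. Across those miRNAs, 266 in brown fat, 168 in liver, 231 in muscle and 238 in hypothalamus, the log2 change of IP over input had a Pearson r with the share of G and C of 0.40, 0.46, 0.35 and 0.43 and a Spearman rho of 0.40, 0.41, 0.37 and 0.45. With the share of U the r was -0.01, 0.02, 0.08 and -0.06. For the other single letters, examined after the values were seen, it was -0.44, -0.52, -0.44 and -0.43 with A, 0.05, 0.16, 0.06 and 0.03 with C, and 0.37, 0.33, 0.30 and 0.39 with G. The difference in C between these 4 miRNAs thus had no counterpart of that direction across all miRNAs. These are correlations across miRNAs that share the same libraries and are given as descriptions only.

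**Figure D4:**
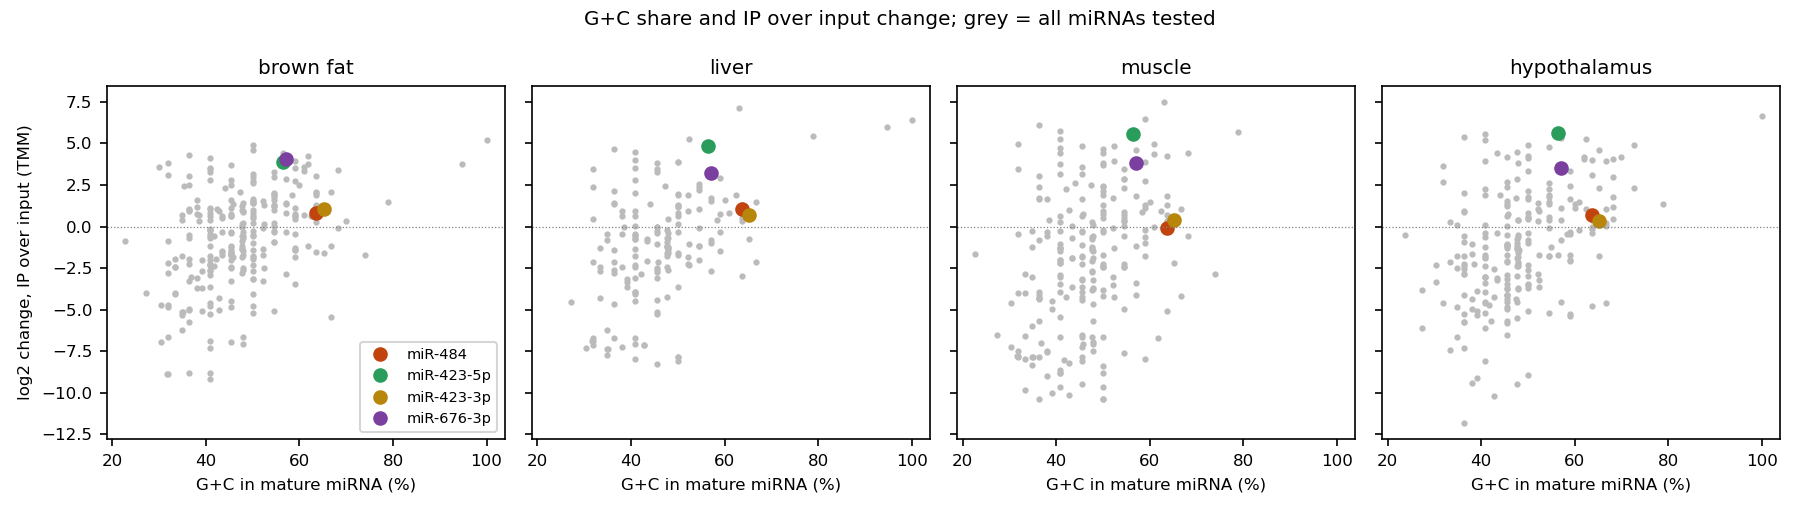
Log2 change of IP over input on the TMM scale against the percent of G and C in the mature miRNA, for each tissue, with a grey point per miRNA tested. miR-423-5p (56.5%) and miR-676-3p (57.1%) lie high among miRNAs of like composition, and miR-484 (63.6%) and miR-423-3p (65.2%) lie lower despite a higher share.

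Without the pull-down, the input levels of the 5 miRNAs differed between tissues in CPM, a share of the library, and on that scale muscle was lowest for each. On the TMM scale, given further on, hypothalamus stood below muscle for miR-484 and miR-423-3p. The TMM differences were near zero and not called for miR-423-5p in hypothalamus over muscle (-0.03 ± 0.31, SE, edgeR adjusted p = 0.931) and for miR-676-3p in liver over muscle (-0.09 ± 0.30, edgeR adjusted p = 0.827). miR-320-3p averaged 223 ± 26.0 CPM in brown fat inputs, 143 ± 27.7 in hypothalamus inputs, 83.0 ± 29.6 in liver inputs and 24.1 ± 3.39 in muscle inputs (SD, n = 5 each), and its neighbours in this order overlapped only for hypothalamus and liver. miR-484 had the same order, with 649.9 ± 205 CPM in brown fat, 308 ± 96.1 in hypothalamus, 207 ± 57.5 in liver and 79.6 ± 19.7 in muscle, and muscle alone stood clear of its neighbour. miR-423-5p was highest in liver, with 169.9 ± 28.9 CPM, followed by 136 ± 37.7 in brown fat, 103 ± 15.6 in hypothalamus and 17.7 ± 5.77 in muscle, where again muscle alone stood clear. Its partner miR-423-3p had another order: 486 ± 148 CPM in brown fat, 313 ± 52.3 in liver, 235 ± 61.9 in hypothalamus and 87.9 ± 16.1 in muscle, with liver and hypothalamus overlapping. miR-676-3p was highest in hypothalamus and brown fat, which overlapped at 210.5 ± 111 CPM in hypothalamus and 186 ± 53.5 CPM in brown fat, and lower in liver at 41.9 ± 7.58 and in muscle at 23.9 ± 4.07 CPM. In bulk tissue fewer cells of a type and less RNA per cell cannot be told apart.

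The order of the tissues by mean level in CPM was the same in IPs and inputs for miR-484 and miR-423-3p and another one for miR-320-3p, miR-423-5p and miR-676-3p. For miR-423-3p this rested on liver IP 4, with 5.5 counts. Its liver IPs averaged 212 ± 147 CPM with that library and 150 ± 55.3 without it (SD, n = 4), and its hypothalamus IPs 171 ± 128. miR-423-5p averaged 3356 ± 2346 CPM in hypothalamus IPs, 2789 ± 3196 in liver IPs, 996 ± 435 in brown fat IPs and 513 ± 264 in muscle IPs, with every pair of neighbours overlapping; without liver IP 4 the liver IPs averaged 1369 ± 426. miR-676-3p averaged 1512 ± 460 CPM in brown fat IPs and 1392 ± 552 in hypothalamus IPs, clear of 212 ± 123 in muscle IPs and 182 ± 157 in liver IPs (SD, n = 5 each), or 112 ± 21.3 without liver IP 4. Brown fat, the tissue in which Cre is driven, thus had the highest mean IP level for miR-676-3p, miR-484 and miR-423-3p, and hypothalamus for miR-320-3p and miR-423-5p. In each case the 2 highest tissues overlapped, for miR-423-3p only through liver IP 4, and these orders were not tested.

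In the test of inputs, over 444 miRNAs and all 20 inputs, the scaling decided the sign of several differences. Between TMM and total count the median difference of all miRNAs shifted by 0.41 to 2.54 on the log2 scale. Differences are therefore given beside the median of all miRNAs tested. A change of scaling moves the miRNAs of a comparison and their median nearly together, so the side of the median can hardly change and is no check. It was the same under both scalings for 29 of 30. The exception was miR-320-3p in brown fat against liver, -0.01 from the median with TMM and 0.01 with total count.

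For hypothalamus inputs, all 5 were below the median difference in each of the 3 comparisons, on a side of the median where as many miRNAs lie as above it. miR-676-3p was close to the middle, above 45.7% of the miRNAs tested against muscle, 47.5% against liver and 41.0% against brown fat. The 8 PCR reference miRNAs taken up further on also had medians below those of all miRNAs, at -0.90, -0.72 and -1.14 in the same order. Against muscle, 0 of 5 were called higher and 2 of 5 lower by edgeR's quasi-likelihood test at an adjusted p under 0.05, where 52% of all miRNAs were called higher and 31.1% lower. The called ones were miR-423-3p, with a log2 difference of -1.13 ± 0.19 (SE, adjusted p = 1.49e-05), and miR-484, with -0.59 ± 0.21 (adjusted p = 0.0128), against a median of 0.83 for all miRNAs. With the mouse as a block miR-484 was no longer called (-0.48, adjusted p = 0.113), and miR-676-3p was (0.64, adjusted p = 0.0219; 0.51 and 0.109 without the block). Both calls for lower levels turned to higher ones with total count, at 1.95 for miR-484 and 1.42 for miR-423-3p, where the median was 3.36.

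Against liver, 0 of 5 were called higher and 4 of 5 lower in hypothalamus, where 48.9% of all miRNAs were called higher and 32% lower. miR-423-5p had the largest difference, -2.36 ± 0.32 (SE, edgeR adjusted p = 9.2e-07), followed by miR-423-3p with -2.10 ± 0.20 (adjusted p = 3.46e-09). miR-484 had -1.12 ± 0.21 (adjusted p = 5.75e-05) and miR-320-3p -0.87 ± 0.26 (adjusted p = 0.00413), against a median of 0.90 for all miRNAs. Both strands of miR-423 thus kept a lower level also with total count, at -0.71 and -0.41, the second without a call (adjusted p = 0.118), while miR-484 and miR-320-3p turned to 0.57 and 0.80. miR-676-3p stood at 0.60 ± 0.30 (adjusted p = 0.0712), and was called at 0.72 (adjusted p = 0.0397) without the shallow hypothalamus input 4, at 0.72 (adjusted p = 0.0417) without hypothalamus input 5, and at 0.86 (adjusted p = 0.0121) with the mouse as a block.

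Against brown fat, 0 of 5 were called higher and 4 of 5 lower in hypothalamus, where 48.9% of all miRNAs were called higher and 35.1% lower. The differences were -1.01 ± 0.25 for miR-320-3p (SE, edgeR adjusted p = 0.00094), -1.45 ± 0.21 for miR-484 (adjusted p = 2.08e-06), -1.45 ± 0.19 for miR-423-3p (adjusted p = 5.12e-07) and -0.80 ± 0.31 for miR-423-5p (adjusted p = 0.0219), against a median of 0.62. All 4 kept their sign with total count. The call of miR-423-5p was lost without brown fat input 1 (-0.65, adjusted p = 0.0602) and with total count (-0.40, adjusted p = 0.159). The muscle markers in hypothalamus input 4 bear on these 3 comparisons; without that library the same 10 members' differences were called, and miR-676-3p against liver in addition.

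Between brown fat and liver, 1 of 5 was called higher and 2 of 5 lower in brown fat, where 26.4% of all miRNAs were called higher and 19.6% lower. miR-423-5p had a difference of -1.57 ± 0.31 (SE, edgeR adjusted p = 0.000291), which was -0.32 and not called (adjusted p = 0.273) with total count. The other called lower was miR-423-3p with -0.64 ± 0.19 (adjusted p = 0.0079), not called with the mouse as a block (-0.39, adjusted p = 0.315) and at 0.63 with total count. miR-676-3p was higher in brown fat by 0.89 ± 0.30 (adjusted p = 0.0194), a call lost without brown fat input 1 (adjusted p = 0.055) or liver input 4 (adjusted p = 0.0583). The Drosha-independent pair had 0.14 ± 0.25 (miR-320-3p, adjusted p = 0.684) and 0.32 ± 0.21 (miR-484, adjusted p = 0.22), against a median of 0.16 for all miRNAs.

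Between brown fat and muscle, 3 of 5 were called higher and 0 of 5 lower in brown fat, where 22.7% of all miRNAs were called higher and 17.3% lower. miR-320-3p was higher by 1.09 ± 0.25 (SE, edgeR adjusted p = 0.00173), miR-484 by 0.85 ± 0.21 (adjusted p = 0.0024) and miR-676-3p by 0.80 ± 0.29 (adjusted p = 0.0324), against a median of 0.16. The call of miR-676-3p was lost without brown fat input 1 or 2 or without muscle input 2, 4 or 5, at adjusted p-values of 0.0532 to 0.091. miR-423-5p stood at 0.77 ± 0.31 (adjusted p = 0.0522) and was called with the mouse as a block (1.27, adjusted p = 0.00758) and without brown fat input 2, 3 or 5 or muscle input 1 or 3. All 5 were higher with total count, at 2.47 to 3.21 beside a median of 2.26.

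Between liver and muscle, 4 of 5 were called higher and 0 of 5 lower in liver, where 27.5% of all miRNAs were called higher and 27.3% lower. miR-423-5p was higher in liver by 2.33 ± 0.32 (SE, edgeR adjusted p = 3.45e-06), ranked 39th of 444, miR-423-3p by 0.97 ± 0.19 (adjusted p = 0.00022) and miR-320-3p by 0.94 ± 0.26 (adjusted p = 0.00404), against a median of 0.23. miR-484 was higher by 0.53 ± 0.21 (adjusted p = 0.0376), a call lost with the mouse as a block (0.79, adjusted p = 0.0557) and without liver input 1 or 2 or muscle input 2, 3 or 4. miR-676-3p stood at -0.09 ± 0.30 (adjusted p = 0.827).

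In a fit of all 40 libraries at once, 9 of these calls were lost. They were miR-484 in hypothalamus against muscle (edgeR adjusted p = 0.19), miR-320-3p in hypothalamus against liver (adjusted p = 0.053), and both miR-320-3p (adjusted p = 0.0507) and miR-423-5p (adjusted p = 0.323) in hypothalamus against brown fat. In brown fat against liver miR-423-3p (adjusted p = 0.0545) and miR-676-3p (adjusted p = 0.0588) were lost, in brown fat against muscle miR-484 (adjusted p = 0.138) and miR-676-3p (adjusted p = 0.116), and in liver against muscle miR-484 (adjusted p = 0.227). miR-676-3p was called higher there in hypothalamus than in muscle (adjusted p = 0.0271) and than in liver (adjusted p = 0.0135). All signs were kept among the calls that were lost.

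**Figure D5:**
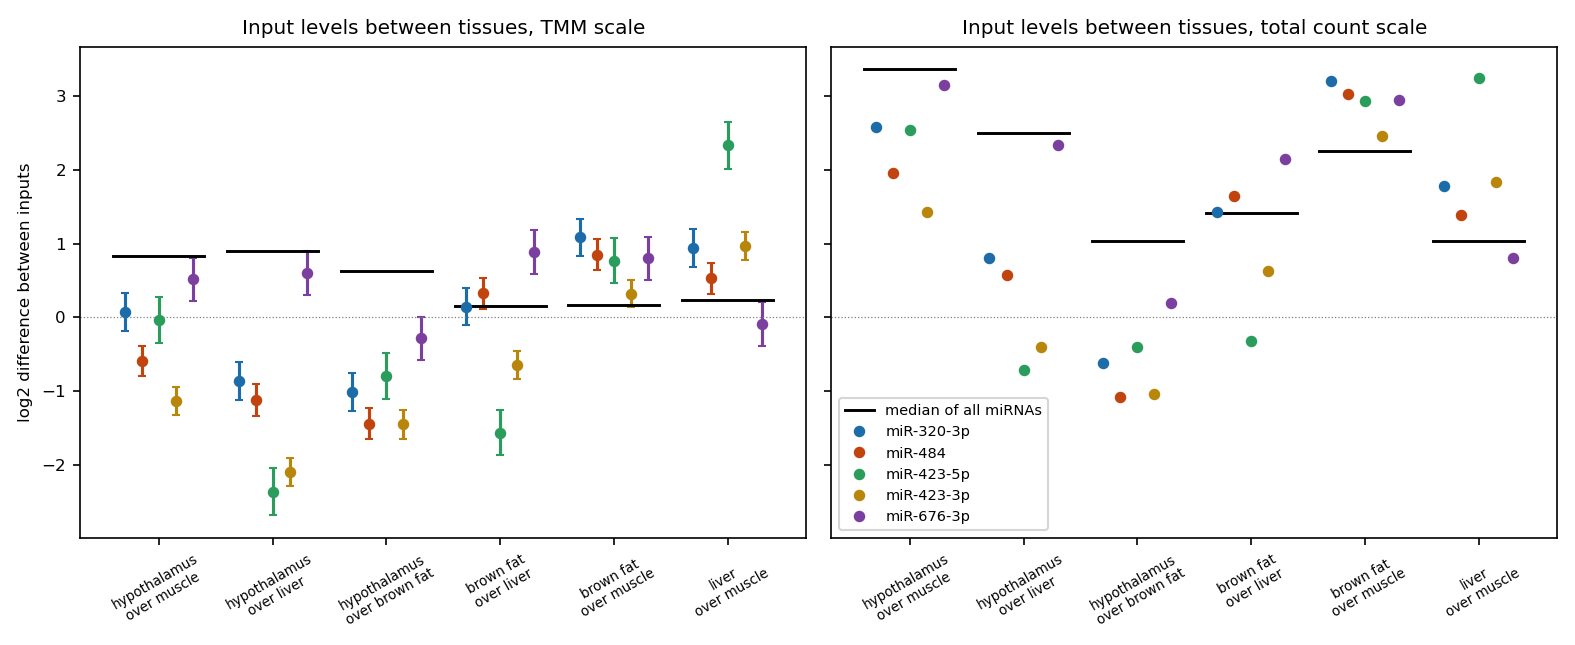
Log2 difference of each miRNA between the inputs of 2 tissues, with TMM (left, bars are SE) and with total count (right), and a black line at the median of all miRNAs tested. All 5 points lie below the line in the 3 hypothalamus comparisons in both panels. Between the panels the points and the line move nearly together, and several points change sign.

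The balance of the miR-423 strands in the inputs, which needs no scaling, also differed between tissues. The log2 ratio of miR-423-5p to miR-423-3p was -0.88 ± 0.16 in liver inputs and -2.35 ± 0.63 in muscle inputs (SD, n = 5 each), a difference of 1.47, or 2.78-fold, without overlap (exact permutation test, two-sided, adjusted p = 0.0238 over 6 pairs of tissues). Hypothalamus inputs, at -1.15 ± 0.35, were also above muscle inputs, by 1.20, or 2.31-fold, without overlap (exact permutation test, adjusted p = 0.0238). Brown fat inputs, at -1.83 ± 0.58, were below liver inputs by 0.95 (exact permutation test, adjusted p = 0.0317). The raw p of the first 2 pairs, 0.00794, is the smallest that splits of 5 and 5 libraries can give. The other 3 differences were 0.68 for hypothalamus less brown fat, 0.52 for brown fat less muscle and -0.27 for hypothalamus less liver, with adjusted p-values of 0.0952, 0.214 and 0.181 in the exact permutation test. The first was called without brown fat input 4 (0.88, adjusted p = 0.0238 in the same exact test). Leaving out any single library kept the 3 calls.

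The other ratios, added after the values were seen and adjusted over 12 comparisons, differed less. The ratio of miR-484 to miR-320-3p was lower in hypothalamus than in muscle inputs by 0.64 on the log2 scale, with 1.06 ± 0.37 in hypothalamus and 1.70 ± 0.15 in muscle (SD, n = 5 each; exact permutation test, adjusted p = 0.0476). The ratio of miR-676-3p to miR-676-5p was higher in liver than in muscle inputs by 0.61, with 1.63 ± 0.17 in liver and 1.02 ± 0.31 in muscle (exact permutation test, adjusted p = 0.0476). Each was called for 1 of 6 tissue pairs, without overlap of the groups and at the smallest raw p possible, 0.00794. Leaving out 1 library cannot make such groups overlap. The losses that follow therefore come from the coarse steps of the exact test with so few libraries, and do not show that a call rests on 1 library. The first was lost without muscle input 1, 2, 4 or 5 and the second without any 1 of the 5 liver inputs, at an adjusted p of 0.0952 each.

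Patterns most like those of the 5 were sought among 184 miRNAs that averaged 100 CPM or more, by Pearson r of TMM-scaled log2 CPM over the 40 libraries, which fall into 8 groups and share mice. miR-320-3p was closest to let-7b-5p, let-7c-5p and let-7a-5p, with r of 0.976, 0.964 and 0.964. miR-423-5p was closest to let-7a-5p at 0.951, let-7b-3p at 0.935 and miR-1843a-3p at 0.930. miR-676-3p was closest to miR-320-3p at 0.928, miR-125a-5p at 0.927 and let-7c-5p at 0.915. The remaining pair had looser company: miR-423-3p was closest to miR-25-3p at 0.875, miR-92a-3p at 0.835 and miR-30a-3p at 0.700, and miR-484 to miR-25-3p at 0.735, miR-92a-3p at 0.681 and miR-423-3p at 0.662. The strands of miR-423 had an r of 0.30 with each other, and miR-484 and miR-320-3p one of 0.36. The libraries are IPs and inputs together, so r also carries the IP over input change that took part in the choice of the names. These likenesses are therefore no separate result.

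Other miRNAs made without Drosha were represented by 10 mirtron strands, which splicing releases in place of Drosha. In the inputs 4 of them passed the filter on low counts, largely through hypothalamus, so their number called there is not given. miR-1224-5p had 113 CPM in hypothalamus inputs and 0.0936 to 0.541 CPM in the inputs of the other tissues, which is too low for a fold change to be read. miR-1981-5p had 186 CPM in hypothalamus inputs, 33.3 in brown fat, 26.3 in liver and 10.6 in muscle inputs, with log2 differences for hypothalamus of 1.46 against muscle, 1.07 against liver and 2.01 against brown fat (edgeR adjusted p at most 0.00228). miR-1981-3p had 0.84 against muscle and 0.63 against brown fat (edgeR adjusted p = 0.00485 and 0.0217), and 0.30 against liver (adjusted p = 0.316). Between brown fat and liver miR-1981-5p had -0.95 (edgeR adjusted p = 0.013), or 0.34 with total count. miR-877-5p, the fourth by level, had 79.5 CPM in hypothalamus IPs and 5.62 CPM in hypothalamus inputs and did not pass the filter. In the IP, 2 of 2 tested were called higher in brown fat, 0 of 1 in liver, 1 of 1 in muscle and 1 of 2 in hypothalamus, where 36.7%, 28.5%, 28.7% and 28.2% of all miRNAs were called higher. These counts depend on the scaling: miR-1981-5p had 1.90 in brown fat and 0.90 in muscle with TMM, against 0.79 and -0.0018 with total count, and miR-1981-3p 1.30 in brown fat, against 0.17. The one called in hypothalamus was miR-1224-5p, with 979 CPM in the IPs and 113 CPM in the inputs on average and a log2 change of 3.96 ± 0.49 (SE, edgeR adjusted p = 1.58e-05), or 3.08 with total count.

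A list of 8 miRNAs that also serve as PCR references was set beside miR-484 and miR-423-3p. In the IP, 1 of 8 was called higher and 5 of 8 lower in brown fat, 2 of 7 and 4 of 7 in liver, and 1 of 8 and 6 of 8 in both muscle and hypothalamus, where 43.3%, 46%, 56.3% and 47.3% of all miRNAs were called lower. miR-26a-5p, the most abundant, had 1997 CPM in brown fat IPs and 26503 CPM in brown fat inputs, with log2 changes of -2.67 in brown fat, -3.07 in liver, -3.96 in muscle and -3.37 in hypothalamus (edgeR adjusted p at most 5.4e-05). miR-103-3p fell in muscle, by 1.46, and in hypothalamus, by 1.38 (adjusted p = 0.000171 and 0.0201), while miR-25-3p was higher in brown fat, liver and muscle IPs, by 1.39, 1.23 and 0.75, or by 0.31, 0.10 and 0.24 with total count. miR-191-5p was higher in liver and hypothalamus IPs, by 0.92 and 1.03 (adjusted p = 0.0177 and 0.0173). With total count miR-191-5p stood at -0.17 and 0.24 in those tissues. The list's median was -1.40 in brown fat, -1.38 in liver, -3.04 in muscle and -2.48 in hypothalamus, beside -0.34, -0.78, -1.41 and -1.04 for all miRNAs. In the inputs 5 of 8 were called lower and 1 higher in hypothalamus than in muscle (31.1% and 52% of all miRNAs), 5 lower and 1 higher than in liver (32% and 48.9%), and 6 lower and none higher than in brown fat (35.1% and 48.9%). Brown fat had 5 of 8 called higher and 2 lower than muscle (22.7% and 17.3%) and 1 higher and none lower than liver (26.4% and 19.6%), and liver had 4 higher and 2 lower than muscle (27.5% and 27.3%).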

How the data were processed

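Small RNA libraries were made with the NEBNext small RNA kit from Trizol-extracted RNA, per the labels' protocols. The authors deposited 1 table of expected counts per mature miRNA, in which 18.9% of the positive values are whole within 0.001, so reads can be split between entries. The submitters' processing notes name fastp, STAR, featureCounts and mm10; versions, miRNA annotation, strand setting and multiple matches: not given in the sources used here. Sample groups and mice are from the labels, and 0 columns lacked a sample. The counts were rounded and fitted in R 4.3.3 with edgeR 4.0.16 (filterByExpr, TMM scaling, quasi-likelihood test, Benjamini-Hochberg adjustment over all miRNAs, two-sided), in 1 fit for the 20 inputs and 1 per tissue for IP and input. Ratios used counts plus 0.5 and exact permutation tests over all splits, computed in Python 3.11.15 with numpy 2.4.6. The fits were tested on simulated data. Alternatives were other scalings (total count, DESeq2 1.42.0), filters, a fit of all 40 libraries, the mouse as a block and leaving out each library. The miRNAs named are the 5 members, the other strands of their hairpins, the 3 most alike by correlation, and up to 4 of each list by level; members and lists were chosen with earlier results of these data known.

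By the labels, 19 IP and input libraries with the same tissue and number come from the same mouse, and brown fat replicate 5 joins 2 mice. After group means were removed, their correlation ran from -0.02 to 0.55 with a median of 0.11, and that of inputs of 2 tissues of one mouse from -0.12 to 0.39 in 14 pairs. Blocked values stand beside the results whose call they change. The reads are PCR products without molecular identifiers, and the libraries of a group are the replicates, so p-values measure the spread between them.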

Additional observations from a re-analysis of the deposited data

Results flagged for a closer look

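The values below lay far from the other 4 libraries of their group by Dixon's criterion for 5 samples; of 48 groups examined, chance flags about 1 in 20. In liver IP 4, the library with 11928 counts, miR-423-5p reached 8467 CPM, the next liver IP being at 1905, and miR-676-3p reached 461 CPM, the next being at 135. miR-320-3p had 2699 CPM in hypothalamus IP 4, against 1583 in the next hypothalamus IP. miR-423-3p had 765 CPM in brown fat IP 2, against 458 in the next IP, and 748 CPM in brown fat input 2, against 456 in the next input; both libraries are from the same mouse. miR-676-3p had 432 CPM in muscle IP 5, against 171 in the next muscle IP.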

How the results depend on the processing

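Of the 30 differences of the members between tissue inputs, direction and call were kept in 30 with a minimum mean of 10 CPM, 27 without a filter, 27 with DESeq2, 23 with the mouse as a replicate block, 16 in the fit of all 40 libraries, 12 with total count, and 270 of 300 when 1 library was left out. Signs turned with total count for hypothalamus over muscle (miR-484 1.95, miR-423-5p 2.54, miR-423-3p 1.42), hypothalamus over liver (miR-320-3p 0.80, miR-484 0.57), hypothalamus over brown fat (miR-676-3p 0.20), brown fat over liver (miR-423-3p 0.63) and liver over muscle (miR-676-3p 0.81). They turned with DESeq2 and its size factors for miR-320-3p in hypothalamus over muscle (-0.26 in both). In the fit of all 40 libraries they turned for miR-423-5p in hypothalamus over muscle (0.16), miR-676-3p in hypothalamus over brown fat (0.10) and miR-320-3p in brown fat over liver (-0.0096), and with the replicate block for miR-423-5p in hypothalamus over muscle (0.62, adjusted p = 0.055). With total count 5 members were called in hypothalamus over muscle and 5 in brown fat over muscle, and in the fit of all 40 libraries 2 in hypothalamus over brown fat, 1 in brown fat over liver and 1 in brown fat over muscle. The share of all miRNAs called under these settings is not given, so nothing is read from these counts. With total count the median of all miRNAs was itself 3.36 in hypothalamus over muscle and 2.26 in brown fat over muscle. The cause of the changes in sign and call was not tested.

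The median IP over input change of the 5 members was 3.87 in brown fat (2.83 with total count, 3.44 without a filter), 3.19 in liver (1.66 with total count, 2.43 without a filter, 2.22 with at least 10 CPM, 2.33 with DESeq2 size factors, 2.32 with DESeq2), 3.80 in muscle (3.10 with total count, 2.99 without a filter) and 3.51 in hypothalamus (2.71 with total count). Leaving out 1 library gave 2.38 to 3.30 in liver, and 0.50 to 0.88 for the miR-423 strand ratio of hypothalamus less brown fat, called once. It turned signs for miR-320-3p in brown fat over liver (-0.014 to 0.41) and hypothalamus over muscle (-0.075 to 0.17), miR-423-5p in hypothalamus over muscle (-0.21 to 0.15), miR-676-3p in liver over muscle (-0.19 to 0.031), and the miR-676 strand ratio in brown fat less muscle (-0.017 to 0.24), hypothalamus less brown fat (-0.24 to 0.015) and hypothalamus less muscle (-0.13 to 0.12; -0.0073 with a pseudocount of 1).

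Depth limits the IPs most: liver IP 4 held 3.25 to 101 counts of the members, and miR-676-5p had at most 5.5 counts in any hypothalamus IP.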
